A study of Mus musculus with 12 samples.

Results

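The cytochrome P450 genes outside the Cyp2c subfamily were followed through mouse liver lacking Mettl5. Members were all genes of the deposited table of ribosome-protected fragments whose symbol starts with Cyp and a digit, leaving out Cyp2c genes and the sterol genes Cyp7a1, Cyp7b1, Cyp8b1, Cyp27a1 and Cyp51. The rule used names only. It found 37 members among 10607 genes, in 18 subfamilies, while 16 of the 53 Cyp genes of the table fell outside it. A mean of at least 10 normalised reads in both assays was reached by 34 members. Cyp2a22, Cyp2j9 and Cyp4a31 did not reach it, and were left out of the tests of RPF and TE.

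Livers came from 3 wild-type mice (Mettl5+/+, WT) and 3 knockout mice (Mettl5-/-, KO), with 1 mouse of each genotype in each of 3 litters. In the knockout line Mettl5 exon 2 carries loxP sites, and crossing with a CMV-cre line removed it from the whole body. The line was made in ES cells of a C57bl/6 x 129S6 F1 hybrid and backcrossed to B6. All tissue was snap-frozen and lysed with cycloheximide, an inhibitor that holds ribosomes on the transcript. One part of each lysate gave the input library, which measures transcript abundance, and the rest was digested to give ribosome-protected fragments (RPF), the pieces of coding sequence covered by ribosomes. Translation efficiency (TE) is the RPF value relative to the input value of the same gene. Sex and age of these mice were not given per animal. Mettl5 encodes the enzyme that places an N6-methyladenosine mark on 18S ribosomal RNA.

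Cytochromes P450 are heme enzymes that insert 1 oxygen atom into their substrate, with electrons passed on by NADPH-cytochrome P450 reductase or cytochrome b5 in the endoplasmic reticulum. In liver, families CYP1 to CYP3 clear drugs, toxins and steroids, CYP4 enzymes hydroxylate fatty acids and eicosanoids, and others make or remove steroid hormones, vitamin D and retinoic acid. Many are zoned along the liver lobule, differ between the sexes, or follow nuclear receptors that sense foreign compounds, fatty acids or retinoic acid.

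Input libraries held 8326325 to 11825643 counted reads, of which 45.8% to 63.8% fell on 1 gene of 18S ribosomal RNA. The genes of the normalised table held 2398804 to 5121304 input reads and 4623826 to 9184242 RPF reads per library. The members took 0.877% to 1.11% of the input reads and 1.58% to 1.87% of the RPF reads of that table. Mettl5 itself had 58.4, 47.8 and 53.1 normalised RPF reads in the WT mice and 8.34, 5.53 and 9.56 in the KO mice. Its normalised input reads were 38.5, 28.2 and 15.7 against 8.55, 9.30 and 8.0, so the groups overlapped in neither assay. Xist had 0 input reads in all 6 mice, while 4 Y-linked genes were present in all 6, with 22 to 728 reads each. Of 6 hepatocyte markers (Alb, Apoa1, Ttr, Cps1, Asgr1, Tat), 0 had an unadjusted p under 0.05 in any comparison. Their input summed to 19645 to 26850 CPM in WT and 20824 to 22332 CPM in KO. Here CPM are counts scaled to the TMM-adjusted library size of edgeR, not to the total of counted reads. The 3 mice of a genotype are separate animals. For every value of whole liver, fewer cells of a type and less RNA per cell cannot be told apart.

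The P450 fold ends in a loop that holds the heme iron through a single cysteine, and its coding sequence shows how alike the members are. A window of 30 coding bases was read from the annotated transcripts (GENCODE M21, build mm10) wherever the encoded loop had the pattern phenylalanine, any 2 residues, glycine, any, arginine, any, cysteine, any, glycine. It was found once in 34 members and not in Cyp20a1, Cyp39a1 and Cyp3a59. The cysteine codon, in capitals, was TGC in 23 windows and TGT in 11. The members below are shown because the comparisons turn on them or because their windows could not be told apart.
Cyp4v3: ttttctgctggacctcgaaacTGTattggt
Cyp2a12: ttttccactgggaagcgattcTGCttggga
Cyp2f2: ttttcggctggacgtcgactgTGTctggga
Cyp2d9: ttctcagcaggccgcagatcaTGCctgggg
Cyp2d22: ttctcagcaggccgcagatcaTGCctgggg
Cyp4a12a: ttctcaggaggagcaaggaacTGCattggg
Cyp4a12b: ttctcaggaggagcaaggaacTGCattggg
Cyp4a10: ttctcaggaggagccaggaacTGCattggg
Cyp4a32: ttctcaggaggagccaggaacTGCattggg
Cyp26b1: tttggcggtggcgtgcggaccTGCctgggc
Cyp26a1: tttggaggaggccttcggagcTGTgtaggc
Cyp2e1: ttttctgcaggaaagcgcgtgTGTgttgga
The window of Cyp4v3 spans chr8:45307107-45308407 on the minus strand, that of Cyp2a12 chr7:27035443-27036484 on the plus strand and that of Cyp2f2 chr7:27132606-27133235 on the plus strand. Cyp2d9 has it at chr15:82456466-82456595 on the plus strand and Cyp2d22 at chr15:82371706-82371831 on the minus strand. The pair Cyp4a12a and Cyp4a12b lies at chr4:115328986-115331846 on the plus strand and chr4:115435240-115438069 on the plus strand. Those of Cyp4a10 and Cyp4a32 are at chr4:115529502-115532543 on the plus strand and chr4:115614880-115621446 on the plus strand, and that of Cyp2e1 at chr7:140773762-140774577 on the plus strand. In these 10 genes an intron splits the window. In Cyp26b1, chr6:84574477-84574506 on the minus strand, and Cyp26a1, chr19:37701160-37701189 on the plus strand, it lies within 1 exon.

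An RPF read of about this length could not be assigned to 1 gene where windows were identical. The windows of Cyp2d9, Cyp2d22 and Cyp2d26 were the same, as were those of Cyp4a12a and Cyp4a12b and those of Cyp4a10, Cyp4a31 and Cyp4a32. In all, 13 members had a window that also occurs in another gene. Over the whole coding sequence, Cyp4a12a and Cyp4a12b were 98.5% identical, with 23 differences in 1524 bases, and only 30.2% of the 30-base windows of either were found in no other gene. Cyp2a5 had the lowest unique share, 27.0%, as its windows recur mostly in Cyp2a4. Cyp3a25 and Cyp3a59 (97.5% identity), Cyp4a10 and Cyp4a32 (97.2%) and Cyp2a12 and Cyp2a22 (97.0%) were the next closest pairs. Only reads with a single location were counted, so RPF reads from shared windows were left out. Values of these genes therefore rest on part of their sequence, and a read with a mismatch may still be placed on the wrong copy. Cyp2e1, Cyp2f2, Cyp2r1, Cyp2u1, Cyp17a1, Cyp20a1, Cyp26a1, Cyp26b1 and Cyp39a1 shared no 30-base window with any other annotated transcript.

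Levels were compared between genes only per length, as normalised reads per kilobase of exon for input and per kilobase of coding sequence for RPF. Cyp2e1, which oxidises ethanol and paracetamol, was highest in WT liver, with 7349 ± 439 normalised input reads per kilobase (mean ± SD, n = 3). Cyp2f2, known for the bioactivation of naphthalene, followed at 1701 ± 151, and Cyp3a11, the main drug-clearing member of its subfamily, at 1365 ± 95.8. Cyp2d26 (782 ± 24.9), Cyp2d9 (770.3 ± 95.5) and Cyp1a2 (759.9 ± 103), the caffeine oxidase, came next and did not differ beyond their spread. The lowest was Cyp2a22, at 2.46 ± 1.30. The median over all genes of the table was 13.7. Before division by exon length, 5093 bases for Cyp3a11 and 2025 for Cyp2f2, Cyp3a11 had more input (6950 against 3445 normalised reads). Cyp2e1 alone took 37.0% to 38.2% of the members' input reads in the WT mice and 40.9% to 45.1% in the KO mice, without overlap. Of their RPF reads it took 36.8% to 44.3% in WT and 42.3% to 46.2% in KO, with overlap. These shares were not tested.

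**Figure D1:**
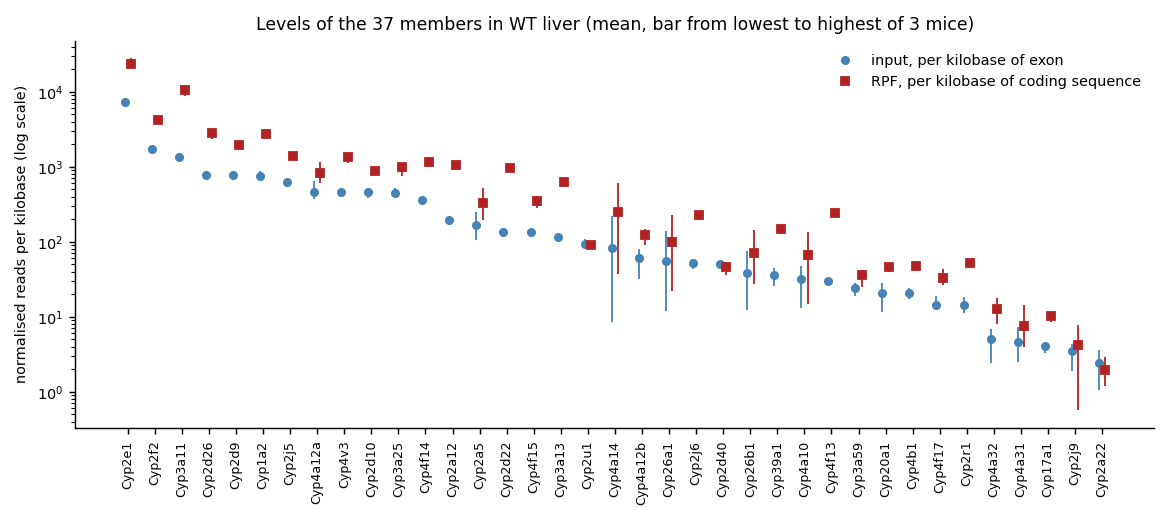
Level of each of the 37 members in WT liver, as normalised reads per kilobase on a log axis, ordered by input. Points are means and bars run from the lowest to the highest of 3 mice. Cyp2e1 is highest in both assays, and Cyp4a14 and Cyp26a1 have the widest bars among members with input above 50 normalised reads per kilobase.

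By RPF per kilobase of coding sequence, Cyp3a11 stood second, with 10496 ± 1676 against 23235 ± 4023 for Cyp2e1 and 4229 ± 343 for Cyp2f2. The ratio of the 2 levels, the TE level per length, was highest for Cyp4f13 (7.90 ± 0.48 in WT), Cyp3a11 (7.66 ± 0.69) and Cyp2d22 (7.19 ± 0.51), whose values overlapped. It was lowest for Cyp2a22 (0.85 ± 0.23), Cyp2d40 (0.91 ± 0.16) and Cyp2u1 (0.97 ± 0.09), also overlapping. The input length takes in all annotated exons of a gene. In Cyp4f13, Cyp3a11 and Cyp2d22 it was 4441, 5093 and 3909 bases, against coding sequences of 1569, 1512 and 1500. The ranking therefore depends on annotated exon length as well as on reads. The median over the 37 members was 2.53, and that over all genes with a mean of at least 10 was 3.21. Of the 34 members above that floor, 13 exceeded the median of all genes.

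Only reads with a single location were counted, so shared sequence was set beside the TE level. The 12 tested members with fewer than 60% unique windows had a median TE level of 2.04, and the 22 others had 3.03. Cyp3a11, with 49.3% unique windows, and Cyp2a12, with 53.5%, were above the median of all genes all the same. Across the 34 members, which share libraries and partly sequence, Spearman's rho between unique share and TE level was 0.28, given as a description.

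**Figure D2:**
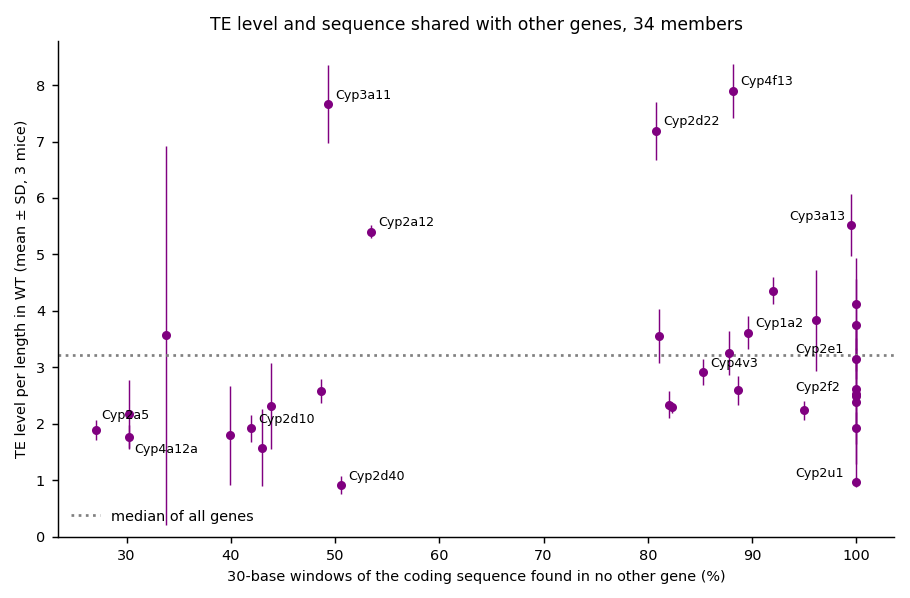
TE level per length in WT liver (mean ± SD of 3 mice) against the percentage of 30-base coding windows that occur in no other gene, for the 34 members with a mean of at least 10 in both assays. The dotted line is the median of all genes, 3.21. Members with few unique windows lie mostly below it, apart from Cyp3a11, Cyp2a12 and Cyp4a32. The values of Cyp4a32 were 7.41, 2.10 and 1.19, above the line only in WT mouse 1, which had 2 input reads.

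The comparison of genotypes asked whether transcript abundance, ribosome occupancy or TE of these genes differed without Mettl5. In input, the quasi-likelihood test of edgeR called 0 of 32 members at an adjusted p under 0.05, and it called 0.0% of all 10057 genes. At an unadjusted p under 0.05, 6 members were called (3.46% of all genes), 6 of them lower in KO (1.49%) and 0 higher (1.97%). These were Cyp4v3, Cyp2d9, Cyp4a12b, Cyp26b1, Cyp2f2 and Cyp2d40. DESeq2 gave 0 members at an adjusted p and 5 lower and 0 higher at an unadjusted p. Without WT mouse 3, WT mouse 2 or KO mouse 1, the unadjusted count of edgeR was 1, 3 and 2. All 3 KO libraries lay below all 3 WT libraries for 5 of 34 members (5.6% of all genes) and above them for 0 (3.65%). The median log2 fold change (KO over WT) was −0.10 for the members and 0.00 for all genes, and 22 of 32 members were below 0 (50.0% of all genes). With litter as a block, 8 members were lower (1.87%) and 2 higher (2.43%) at an unadjusted p, and 0 passed the adjusted p, which 0.0199% of all genes did. Cyp17a1 and Cyp4a32 had too few input counts for the edgeR test.

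In RPF, limma on log2(value + 1) called 1 of 34 members at an adjusted p under 0.05, Cyp4v3, which fell. It called 0.489% of all 8994 genes, and 0.322% as lower. At an unadjusted p, 9 members were called (13.4% of all genes), 9 of them lower in KO (7.99%) and 0 higher (5.4%). All 3 KO libraries lay below all 3 WT libraries for 8 members (12.9%) and above them for 2, Cyp4b1 and Cyp17a1 (6.97%). The median log2 fold change was −0.11 for the members and −0.03 for all genes, and 25 members were below 0 (54.0% of all genes). With litter as a block, 5 members passed the adjusted p, and all fell, where 2.62% of all genes passed and 1.66% fell. These 5 were Cyp4v3, Cyp2a12, Cyp2f2, Cyp2d9 and Cyp4a12a. At an unadjusted p the block gave 10 lower (9.77%) and 1 higher (7.27%), the latter Cyp4a14. Without KO mouse 1, 3 members passed without the block, Cyp4v3, Cyp2a12 and Cyp2d9, and without WT mouse 2 or 3 or KO mouse 2 or 3, 0 passed.

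In TE, limma called 0 of 34 members at an adjusted p under 0.05 and 0.0% of all genes. At an unadjusted p, 2 members were called (4.7% of all genes), Cyp2a12 lower (2.61%) and Cyp2d40 higher (2.09%), and edgeR on whole reads gave 0 at an adjusted p and 1 at an unadjusted p. With litter as a block, 1 was lower (3.39%) and 1 higher (3.36%), and 0 passed the adjusted p (0.0111% of all genes). The median TE change was −0.09 for the members and −0.01 for all genes, and 24 members were below 0 (51.3%). Each member was placed in 1 group by role, although Cyp2a12 and Cyp2d9, placed with foreign compounds and small molecules, also hydroxylate steroids. At an unadjusted p, 4 of 14 enzymes of foreign compounds and small molecules, 3 of 14 of fatty acids and 2 of 5 of steroids and retinoids were lower in RPF. Over all genes, 7.99% were. Of these, Cyp39a1 had an unadjusted p of 0.0809 with the litter block and 0.0582 with the GC trend removed, both in limma, and it also missed 0.05 without WT mouse 1 or KO mouse 1. Cyp2a12 lost its unadjusted TE call without any 1 of the WT mice or KO mouse 3, and Cyp2d40 without WT mouse 1 or 2 or KO mouse 3. In limma, Cyp2a12 also missed 0.05 with TE taken per mouse (0.0528) and with the GC trend removed (0.0592). Cyp2d40 missed it in edgeR on whole reads (0.0604). The median RPF changes of the 3 groups were −0.10, −0.07 and −0.27.

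**Figure D3:**
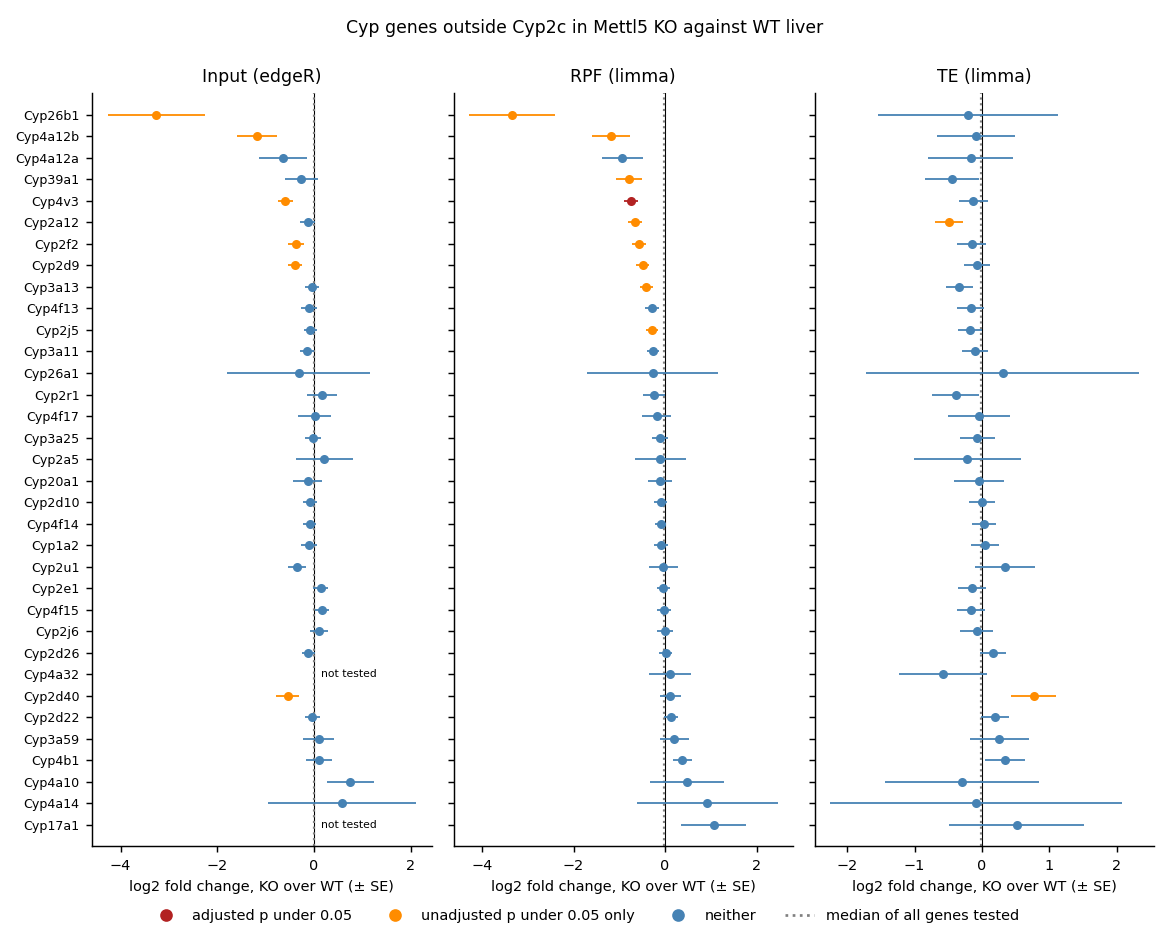
Log2 fold change (KO over WT, ± SE) of the 34 members tested, in input, RPF and TE, ordered by RPF. Red marks an adjusted p under 0.05, orange an unadjusted p under 0.05 only, and the dotted line the median of all genes. Cyp4v3 is the only red point, at −0.74 in RPF, and Cyp26b1 lies lowest with wide errors.

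Among the enzymes placed with foreign compounds and small molecules, Cyp2a12 differed most in RPF. It has a role in the hydroxylation of steroids and bile acids in mouse liver. Its normalised RPF reads (chr7:27029081-27037375, plus strand) were 1556, 1574 and 1491 in the WT mice and 1006, 1109.6 and 829 in the KO mice. The groups did not overlap, and the WT mice were close together. The log2 fold change was −0.66 ± 0.15 (SE), with an adjusted p of 0.0517 (limma) that became 0.0116 with litter as a block. With the GC trend removed the adjusted p was 0.117 in limma, and 0.0414 when litter was also a block. Input reads were 666, 674 and 662 in the WT mice and 473, 698 and 633 in the KO mice, and these overlapped. The TE change of Cyp2a12 was −0.49 ± 0.21 (SE), lower in 3 of 3 litters, with an adjusted p of 0.998 in limma. Of its windows, 53.5% were unique, and nearly all others recur in Cyp2a22, which had 2 to 16 input reads per library.

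Cyp2f2 had lower means in KO in both assays. Its RPF reads were 5793, 6784 and 6113 in the WT mice and 4118, 3891 and 4557 in the KO mice (chr7:27119909-27133660, plus strand). Its input reads were 3111, 3711 and 3511 in the WT mice and 2253, 2266 and 3318 in the KO mice. The RPF groups did not overlap, whereas in input the KO mouse of litter 3 reached the WT range. The log2 fold change was −0.57 ± 0.15 (SE) in RPF, with an adjusted p of 0.0891 in limma (0.0295 with litter as a block). In input it was −0.38 ± 0.16 (SE), with an adjusted p of 0.999 in edgeR. Dropping single mice moved this input change between −0.58 (KO mouse 3) and −0.28 (KO mouse 2). Its unadjusted p in edgeR was then 0.0908 to 0.149 for WT mouse 2 or 3 and KO mouse 1 or 2. It stayed under 0.05 for WT mouse 1 and KO mouse 3. Cyp2f2 is a periportal gene of the lobule, and of 6 other periportal markers (Hal, Sds, Gls2, Pck1, Ass1, Arg1) 0 had an unadjusted p under 0.05 in either assay.

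The 5 members of the Cyp2d subfamily, relatives of the human drug oxidase CYP2D6, lie on chromosome 15. Cyp2d9, a male-predominant steroid hydroxylase (chr15:82433437-82456845, plus strand), had RPF reads of 2813, 3054 and 3062 in the WT mice and 2303, 1924 and 2130.2 in the KO mice. Its input reads were 1755, 2172 and 2215 in the WT mice and 1378, 1487 and 1716 in the KO mice. Neither assay showed overlap. The log2 fold change was −0.49 ± 0.14 (SE) in RPF, with an adjusted p of 0.104 in limma (0.033 with litter as a block), and −0.40 ± 0.15 (SE) in input. Cyp2d10, whose coding sequence is 92.5% identical to Cyp2d9, had RPF reads of 1262, 1263 and 1411 in the WT mice and 1299.8, 1172 and 1201 in the KO mice, which overlapped. Its RPF change was −0.10 ± 0.14 (SE). The difference between the pair was not tested.

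Cyp2d40 had a TE change of opposite sign to Cyp2a12. Its input reads were 89.9, 89.3 and 90.5 in the WT mice and 78.3, 49.2 and 48.0 in the KO mice, with no overlap. Its RPF reads were 36.6, 50.3 and 51.6 in the WT mice and 57.7, 38.7 and 54.5 in the KO mice, with overlap. The TE change was 0.77 ± 0.34 (SE), higher in 3 of 3 litters, and its adjusted p was 0.998 in limma. The input change of Cyp2d40 was −0.55 ± 0.24 (SE). Dropping single mice moved it between −0.87 (KO mouse 1) and −0.42 (KO mouse 2). Its unadjusted p in edgeR was then 0.0622 to 0.122 for any WT mouse and KO mouse 2 or 3, and 0.00354 for KO mouse 1. With all mice its unadjusted p was 0.0811 in DESeq2 and 0.0207 in edgeR with litter as a block. Cyp2d26, which with Cyp2d9 had the most input per length of the subfamily, and Cyp2d22 had RPF changes of 0.01 and 0.13.

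Promoters are shown for Cyp2d9 and Cyp2d10, a pair close in coding sequence. RefSeq promoters (GRCm38.p6, 250 bases before to 50 after the start) were present for 27 members, with 31 promoters in all. A direct repeat of AGGNCA with a spacer of 1 base, of the kind that HNF4A and other nuclear receptors bind, was searched on both strands and is in capitals below. It occurred in Cyp2d9, Cyp2d10 and Cyp2d40 and in 0.381% of all 32851 promoters.
Cyp2d9: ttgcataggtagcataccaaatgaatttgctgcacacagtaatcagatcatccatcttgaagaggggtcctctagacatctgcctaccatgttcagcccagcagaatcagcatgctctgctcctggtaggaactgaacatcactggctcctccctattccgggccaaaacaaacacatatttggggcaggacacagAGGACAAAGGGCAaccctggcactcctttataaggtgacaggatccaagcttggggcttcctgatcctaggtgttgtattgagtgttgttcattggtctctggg
Cyp2d10: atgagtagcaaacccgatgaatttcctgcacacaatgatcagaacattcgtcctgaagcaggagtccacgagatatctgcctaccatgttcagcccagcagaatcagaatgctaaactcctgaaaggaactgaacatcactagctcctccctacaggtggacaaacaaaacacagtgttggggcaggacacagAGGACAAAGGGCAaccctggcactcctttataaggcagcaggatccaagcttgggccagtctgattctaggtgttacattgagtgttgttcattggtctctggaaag
The Cyp2d9 promoter spans chr15:82452127-82452426 on the plus strand and that of Cyp2d10 chr15:82407145-82407444 on the minus strand. The match starts 54 bases before the start in Cyp2d9 and 57 in Cyp2d10. Of 3 further patterns, CAAAGTCCA (an HNF4 core) occurred in Cyp3a11, an HNF1 site (GTTAAT, any base, ATT) in Cyp4a32, and TTCNNNGAA (a STAT site) in Cyp4b1 and Cyp4f13, with 0.475%, 0.399% and 8.30% of all promoters holding them.

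Cyp3a13 had RPF reads of 978, 934 and 956 in the WT mice and 872, 703 and 603 in the KO mice. These did not overlap, and its log2 fold change was −0.41 ± 0.14 (SE) with an adjusted p of 0.209 in limma. With the GC trend removed the change was −0.20 (unadjusted p of 0.144, limma). Its input change was −0.05 ± 0.14 (SE). Cyp3a11 had RPF reads of 18476, 15721 and 13415 in the WT mice and 14076, 12734 and 12347 in the KO mice, overlapping, with a change of −0.27 ± 0.13 (SE) and an adjusted p of 0.392 in limma. It was −0.04 with the GC trend removed and −0.16 without WT mouse 1. Its input reads did not overlap, at 7458, 6907 and 6485 in the WT mice and 6414, 6209.6 and 5918 in the KO mice, for a change of −0.14 ± 0.14 (SE). Cyp3a25 and Cyp3a59 share 50.0% of their windows and had RPF changes of −0.11 and 0.20, and that of Cyp3a25 was 0.13 with the GC trend removed.

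The pericentral enzymes Cyp2e1 and Cyp1a2 gave no detectable difference. Cyp2e1 RPF reads were 31029.8, 41234 and 30830.3 in the WT mice and 33861, 36284 and 29582 in the KO mice, with a log2 fold change of −0.04 ± 0.15 (SE). Its input was higher in the KO mouse of all 3 litters, for a change of 0.14 ± 0.15 (SE) that missed the test. Cyp1a2 RPF reads were 4129, 4431 and 4034 in the WT mice and 3738, 4156 and 3967 in the KO mice, lower in all 3 litters, with a change of −0.09 ± 0.15 (SE). Of 6 other pericentral markers, Rgn (−0.55) and Slc1a2 (−0.89) had an unadjusted p under 0.05 in RPF, both lower in KO. Glul (−0.21), Oat (0.03), Lhpp (0.40) and Gulo (−0.02) did not. In input 0 had one, although Slc1a2 was at −0.93 (unadjusted p of 0.0502, edgeR). Cyp2a5, which oxidises coumarin and nicotine, was high in litter 2 in both genotypes, with RPF reads of 290.1, 765 and 401 in the WT mice and 333, 681 and 313 in the KO mice.

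**Figure D4:**
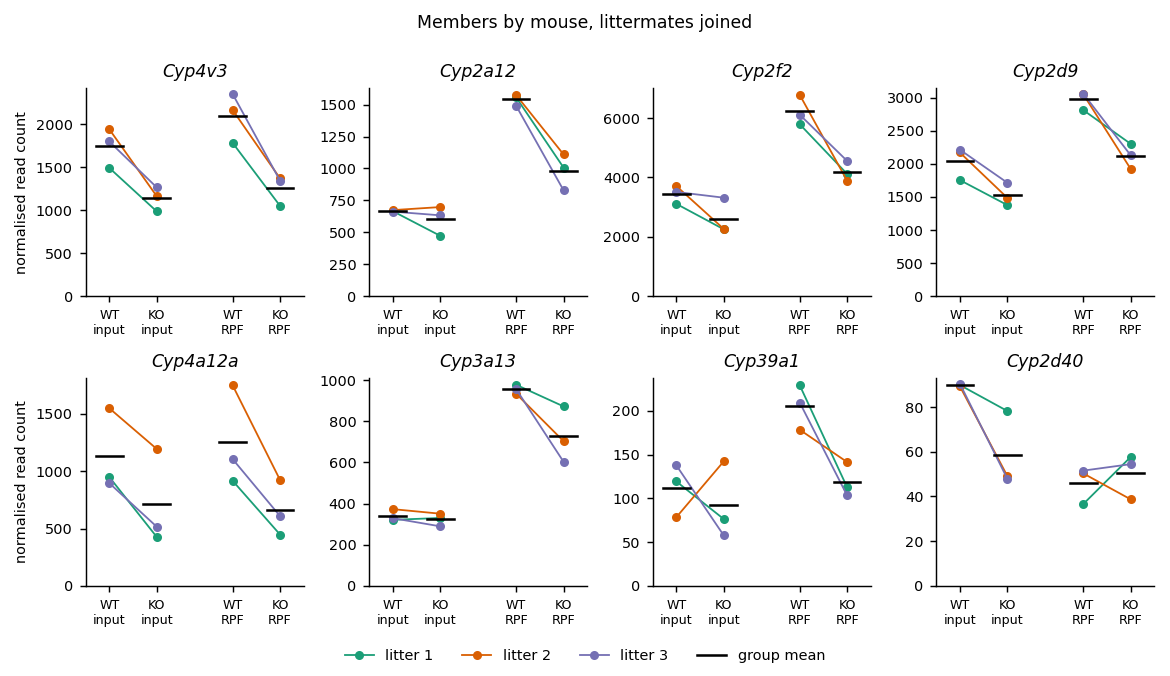
Normalised read counts of 8 members in each mouse, in input and in RPF, with littermates joined and black bars at group means. Cyp4v3, Cyp2a12, Cyp2f2, Cyp2d9, Cyp3a13 and Cyp39a1 have all 3 KO points below the WT points in RPF. Cyp4a12a is lower in the KO littermate of each litter although the groups overlap, and Cyp2d40 is separated in input but not in RPF.

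Among the fatty acid enzymes, Cyp4v3 fell in RPF. It hydroxylates the end of medium-chain fatty acids, and its human counterpart CYP4V2 is mutated in Bietti crystalline dystrophy of the retina. RPF reads of Cyp4v3 (chr8:45304944-45333216, minus strand) were 1782, 2164 and 2349.8 in the WT mice and 1049.6, 1369 and 1343 in the KO mice. Input reads were 1491, 1940.4 and 1798 in the WT mice and 986, 1163 and 1265 in the KO mice. In both assays every KO mouse lay below every WT mouse. The log2 fold change was −0.74 ± 0.15 (SE) in RPF, or 1.67-fold lower in KO, with an adjusted p of 0.0318 in limma and 0.00189 with litter as a block. In input it was −0.59 ± 0.15 (SE), and its adjusted p was 0.851 in edgeR. The TE change was −0.13 ± 0.22 (SE) (adjusted p of 0.998, limma). The annotation holds a second gene, Gm45753, that overlaps the end of Cyp4v3 on the same strand and shares 14.7% of its windows, and it had 0 or 1 input reads per library. The RPF call was lost without WT mouse 2 or 3, KO mouse 2 or 3 (adjusted p of 0.0807 to 0.204 in limma), with the RPF columns alone (0.088), and with a GC trend removed (0.181, but 0.0124 when litter was also a block). Under these settings its log2 fold change was −0.81 to −0.60.

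Cyp4a12a, a male-predominant arachidonic acid hydroxylase (chr4:115299046-115332815, plus strand), followed litter as well as genotype. Its RPF reads were 917, 1749.9 and 1106 in the WT mice and 448, 924 and 609 in the KO mice. Litter 2 was highest in both genotypes and the groups overlapped by 1 KO value, yet the KO mouse was lower in 3 of 3 litters. The log2 fold change was −0.94 ± 0.45 (SE), with an adjusted p of 0.411 in limma without the litter and 0.00132 with it. In input, where the reads were 950.2, 1550.1 and 897 in the WT mice and 428, 1195 and 516 in the KO mice, the change was −0.65 ± 0.50 (SE) and its adjusted p with litter as a block was 0.223 in edgeR. Leaving out WT mouse 2 gave an input change of −0.36, KO mouse 1 one of −0.38 and KO mouse 2 one of −1.24, and the RPF change ran from −1.21 to −0.67. Cyp4a12b RPF reads were 228, 137 and 195 in the WT mice and 52.8, 84.8 and 115 in the KO mice, without overlap, for a change of −1.18 ± 0.41 (SE) and an adjusted p of 0.245 in limma. Both share 69.8% of their windows, and RPF reads from these were counted for neither. Whether the 2 genes are independent observations was not tested.

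Cyp4a14 and Cyp4a10, textbook targets of the fatty acid sensor PPARA, differed more between litters than between genotypes. Cyp4a14 RPF reads were 929.7, 159 and 56.7 in the WT mice and 1073, 328 and 164 in the KO mice, and input reads were 567, 62.7 and 22.3 in the WT mice and 665, 165 and 60.8 in the KO mice. Litter 1 was highest and litter 3 lowest in each genotype, and the KO mouse was above its littermate in 3 of 3 litters in both assays. The RPF change was 0.92 ± 1.53 (SE), with an adjusted p of 0.844 in limma and 0.17 with litter as a block. Cyp4a10 input reads were 101, 73.7 and 27.5 in the WT mice and 116, 138 and 67.2 in the KO mice, again higher in 3 of 3 KO littermates, with a change of 0.75 ± 0.49 (SE) that was 0.34 without WT mouse 3 and 1.15 without WT mouse 1. Its RPF reads were 204, 77.6 and 22.7 in the WT mice and 131, 135 and 57.3 in the KO mice, lower in the KO mouse of litter 1 and higher in the other litters, for a change of 0.49 ± 0.81 (SE). With litter as a block the adjusted p of Cyp4a10 in input was 0.918 in edgeR. Ppara itself had log2 fold changes of 0.02 in input and 0.27 in RPF.

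The remaining members of this group had smaller changes. Cyp2j5, an epoxygenase of arachidonic acid, had RPF reads of 2176, 2246 and 1856 in the WT mice and 1952, 1694 and 1537 in the KO mice, lower in 3 of 3 litters with overlap, and a change of −0.28 ± 0.13 (SE) (adjusted p of 0.363, limma). With the GC trend removed it was −0.09, with an unadjusted p of 0.436 in limma. The 4 Cyp4f members, which inactivate leukotrienes, had RPF changes from −0.29 (Cyp4f13) to −0.02 (Cyp4f15), and 0 had an unadjusted p under 0.05. Cyp4f14, the highest of them, had RPF reads of 1631, 1980.2 and 1838 in the WT mice and 1720.4, 1711 and 1646 in the KO mice. Cyp4b1 had RPF reads of 77.5, 65.7 and 75.3 in the WT mice and 96.6, 89.1 and 97.5 in the KO mice. All KO values of Cyp4b1 were above the WT values, and the change was 0.37 ± 0.21 (SE) with an adjusted p of 0.46 in limma.

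Enzymes of steroids, vitamin D and retinoids included members with a wide spread. Cyp26b1, which breaks down retinoic acid (chr6:84571414-84593908, minus strand), had input reads of 398, 65.8 and 149 in the WT mice and 16.4, 6.65 and 43.2 in the KO mice. Its RPF reads were 219, 41.8 and 70.1 in the WT mice and 4.17, 5.53 and 18.2 in the KO mice. The groups did not overlap in either assay, but the WT mice differed widely among themselves, with litter 1 highest and litter 2 lowest. The log2 fold change was −3.26 ± 1.01 (SE) in input, with an adjusted p of 0.999 in edgeR, and −3.34 ± 0.94 (SE) in RPF, with an adjusted p of 0.174 in limma (0.166 with litter as a block).

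Hepatic stellate cells store vitamin A, and their markers were read beside Cyp26b1. Of 5 markers, Col1a1 (0.97), Dcn (0.55), Reln (0.45) and Colec11 (0.41) had an unadjusted p under 0.05 in RPF, all higher in KO, and Lrat had −0.17. None of the 5 passed an adjusted p of 0.05 in limma. In input, Reln (0.45) and Col1a1 (0.70) were higher at an unadjusted p. Summed over the 5 markers, normalised RPF reads were 1670.5 to 1902 in the WT mice against 2428 to 2686 in the KO mice, and input was 67.2 to 76.5 against 80.5 to 92.0 CPM. No marker was at 0 in any mouse. The part of these cells in the Cyp26b1 values was not tested.

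Cyp26a1 clears retinoic acid too and is a textbook target of retinoic acid receptors. Its input reads were 275, 23.5 and 30.2 in the WT mice and 185, 23.9 and 12.8 in the KO mice and its RPF reads 335, 71.7 and 33.0 in the WT mice and 254, 50.4 and 35.4 in the KO mice. The mice of litter 1 were highest in both genotypes, and the groups overlapped. The RPF change was −0.27 ± 1.43 (SE) (adjusted p of 0.951, limma). Its promoter is shown because it alone among the members held a direct repeat of GTTCA with 6 bases between, of the kind retinoic acid receptors bind, present in 0.0761% of all promoters and marked in capitals.
Cyp26a1: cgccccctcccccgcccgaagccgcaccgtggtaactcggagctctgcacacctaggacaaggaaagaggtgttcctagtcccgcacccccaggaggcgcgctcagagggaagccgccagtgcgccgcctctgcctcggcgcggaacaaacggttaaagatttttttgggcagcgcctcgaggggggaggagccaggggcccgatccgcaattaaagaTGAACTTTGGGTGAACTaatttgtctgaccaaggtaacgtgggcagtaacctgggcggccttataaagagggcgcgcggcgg
It lies at chr19:37697558-37697857 on the plus strand (GRCm38.p6), and the match, read on the other strand, starts 32 bases before the start.

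**Figure D5:**
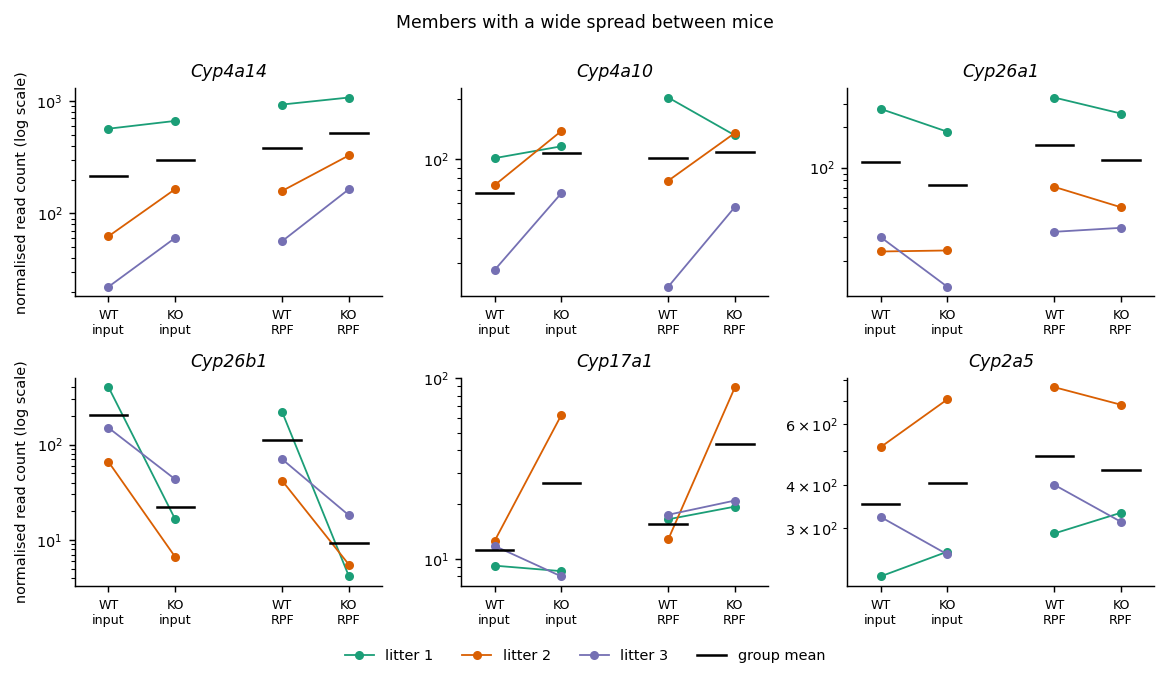
Normalised read counts of 6 members with a wide spread, on log axes, in input and RPF, with littermates joined and black bars at group means. Cyp4a14 and Cyp26a1 are highest in litter 1 in both genotypes, Cyp26b1 is lower in KO in every litter, and Cyp17a1 is high only in the KO mouse of litter 2.

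Cyp39a1, an oxysterol hydroxylase of bile acid synthesis (chr17:43667425-43751431, plus strand), had RPF reads of 229, 178 and 209 in the WT mice and 113, 141 and 103 in the KO mice, without overlap. Its input reads were 119, 78.4 and 138 in the WT mice and 76.3, 142 and 57.6 in the KO mice, with overlap, as the KO mouse of litter 2 was highest. The RPF change was −0.79 ± 0.28 (SE) and its adjusted p was 0.232 in limma, while the TE change was −0.45 ± 0.40 (SE). Cyp17a1, which makes androgen and cortisol precursors, had RPF reads of 16.6, 12.8 and 17.5 in the WT mice and 19.5, 89.1 and 21 in the KO mice. The KO mouse of litter 2 stood far above the others, also in input (62.5 against 8.0 to 12.5). Its RPF change of 1.06 ± 0.71 (SE) was 0.36 without that mouse. Cyp2r1, a vitamin D hydroxylase, had RPF reads of 67.1, 88.7 and 79.4 in the WT mice and 70.9, 54.7 and 73.6 in the KO mice and a change of −0.24 ± 0.25 (SE). The orphan Cyp20a1 had one of −0.10 ± 0.26 (SE).

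Electron donors with P450-associated proteins, and heme enzymes, were read as fixed lists. The first list held 7 genes (Por, Cyb5a, Cyb5b, Cyb5r3, Fdx1, Fdxr, Pgrmc1), and 0 passed an adjusted p of 0.05 in any comparison. Of these, Cyb5r3 alone had an unadjusted p under 0.05, lower in RPF (−0.31). Por, the reductase that serves all microsomal P450 enzymes, had log2 fold changes of −0.08 in input and −0.13 in RPF. Of 12 heme genes, 0 passed, and in RPF Fech, which inserts the iron, was at −0.39 and Cpox at 0.42, both with an unadjusted p under 0.05. Alas1, the rate-limiting step of heme synthesis, had RPF reads of 2477, 15401 and 4151 in the WT mice and 5212, 3244 and 1732 in the KO mice, so that WT mouse 2 stood far above the rest.

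Of 14 regulators of P450 genes, 13 were in the table and 0 passed an adjusted p of 0.05 in any comparison. Ahr, the dioxin receptor, had input reads of 116, 139 and 226 in WT and 248, 299 and 254 in KO, a change of 0.75 in edgeR, and 0.62 in RPF, both with an unadjusted p under 0.05. Nr1i2, the pregnane X receptor, was at −0.37 in input (unadjusted p of 0.0302, edgeR) and −0.02 in RPF. Nr1i3 (0.00), Hnf4a (−0.17) and Rxra (0.24) had RPF changes that missed an unadjusted p of 0.05. Bcl6, a repressor of genes of the female pattern, had RPF reads of 54.9, 99.8 and 404 in WT and 64.6, 403 and 571 in KO, low in litter 1 and high in litter 3 in both genotypes.

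The sex pattern of P450 genes was described by 2 lists. All 3 male-predominant members, Cyp2d9, Cyp4a12a and Cyp4a12b, had lower means in KO in both assays, and at an unadjusted p 2 of the 3 were lower in input (Cyp2d9, Cyp4a12b) and 2 in RPF (the same genes), against 1.49% and 7.99% of all genes. Their summed normalised RPF reads were 3959 to 4941 in WT and 2803 to 2933 in KO. Of 10 female-predominant genes, only Cyp17a1 and Cyp39a1 were in the table, with RPF changes in opposite directions.

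The input count table held 71 further Cyp entries besides the members, the Cyp2c genes and the 5 sterol genes left out by the rule, 28 of them pseudogenes or antisense entries. Of the 71, 37 had 0 counts in all 6 mice and 15 had 10 or more in total. Cyp2b9 had 0, 0 and 0 reads in WT and 6, 4 and 0 in KO, Cyp2b10 had 1, 0 and 1 against 3, 6 and 0, and Cyp3a16 had 3, 2 and 2 against 16, 6 and 2. These are unscaled counts, and the library of KO mouse 1, the first KO value in each, was the deepest. They were too low for the test. Cyp2b13, Cyp3a41a and Cyp3a41b had 0 reads throughout, and a count of 0 allows up to 3 reads per library, for counting error only.

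Markers of other liver cells were read as lists beside the members, and 0 genes of these lists passed an adjusted p of 0.05 in edgeR or limma. At an unadjusted p, 0 of 4 Kupffer cell markers tested, 0 of 2 cholangiocyte markers and 0 of 2 erythroid markers were called in RPF. Of 5 markers of sinusoidal endothelium, Lyve1 (1.39) was higher in RPF and Clec4g (−0.59) lower in TE. Lyve1 had only 2 to 17 input reads and 4 to 36 RPF reads per library. Clec4g (−0.32), Fcgr2b (−0.31), Stab2 (−0.07) and Kdr (0.09) were not called in RPF. Of 2 lymphocyte markers tested, Cd74 was higher in input (0.63) and RPF (0.63). The other, Ptprc, was not called, at −0.03 in input and −0.12 in RPF. Of 4 sex chromosome transcripts tested, Eif2s3y (−0.39) was lower in RPF. The part of these cells in the members' values was not tested.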

How the data were processed

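Livers of 3 WT and 3 KO mice, paired by litter, gave 6 input and 6 RPF libraries. The authors aligned trimmed input reads to mm10 with STAR 2.7.3a and deposited counts of uniquely mapped reads per gene on 1 strand (featureCounts 1.6.0 per the labels). RPF reads of 25 to 34 bases went through RiboToolkit with up to 2 mismatches, a single location and no removal of duplicates. The second deposited table holds a signal that the authors scaled per library. In it, 100% of values were whole reads (within 0.01 reads) times 1 factor per library, and no gene length entered. It also holds a log2 fold change and p-values made by the authors, which were not used.

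Input counts were tested with edgeR 4.0.16 (TMM, filterByExpr, quasi-likelihood), and RPF and TE with limma 3.58.1 (trend, robust) on log2(value + 1) for genes whose mean reached 10 in both assays, in 12 libraries with 4 group means. Benjamini-Hochberg adjustment ran over all genes tested, with a threshold of 0.05. A fold change on the log2(value + 1) scale understates that of low genes. Litter was a block in an alternative, since the labels state that equal numbers mark littermates. The deviations of littermates correlated at 0.0816, 0.127 and 0.100 in input and 0.242, 0.144 and 0.195 in RPF, against −0.239 to 0.0813 between litters over both assays. DESeq2 1.42.0, other filters, pseudocounts of 0.1 and 5, scalings, a GC trend and leaving out each mouse were the other alternatives. Scripts were tested on simulated data. Levels between genes kept the table's scaling and were divided by length in kilobases. Intervals and the floor of 3 reads cover counting error only, and reads without molecular identifiers are not independent molecules.

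The members and gene lists were chosen with earlier results of these data known. Members named with values were those past an adjusted p of 0.05, the 5 with the smallest p in each comparison, the highest by input per kilobase in each subfamily with more than 1 member, and a fixed list of well-studied genes. Cyp2a22, Cyp2d22, Cyp2u1, Cyp3a59, Cyp4a32, Cyp4f13, Cyp4f15 and Cyp20a1 were named after their values were seen. All 37 members matched the annotation by gene identifier.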

Additional observations from a re-analysis of the deposited data

How the results depend on the processing

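Under the alternatives, 560 values of 37 results were recomputed. Of the counts and medians over members, 25 values moved and 113 did not. A count moved if it changed by more than 1.5-fold or to or from 0. A median moved if it changed by at least the SD of the litter medians. Of the fold changes of single members, 403 kept their sign and call, 13 gained an adjusted call, 6 lost one and 0 reversed. The single-member values left out changes of named members smaller than their SE. Of those, 70 of 705 recomputed values changed sign, and none was past an adjusted p of 0.05. In input, testing without a filter on low counts gave 2 members past an adjusted p of 0.05 (Cyp4a12b and Cyp4v3), and leaving out a mouse gave 0. The unadjusted input count was 10 with the litter block and 1 to 6 when a mouse was left out. In RPF, the adjusted count was 2 with a mean of at least 50 (Cyp2a12 and Cyp4v3), 5 with the litter block, 0 with the RPF columns alone, 0 with the GC trend removed, 5 with the GC trend removed and the litter block, and 0 to 3 when a mouse was left out. The block changed no other call of a member at an adjusted p. The RPF median of the members was −0.19 with a mean of at least 50 and −0.193 to −0.0776 when a mouse was left out. In TE, the unadjusted count was 1 with a mean of at least 50, with TE per mouse, with edgeR on whole reads and with the GC trend removed, and 0 to 3 when a mouse was left out. The causes were not tested. Over all genes, the number past an adjusted p in RPF was 44, and it was 236 with the litter block, 14 with the GC trend removed, 23 with RPF columns alone, 66 with edgeR on whole reads, and 0 (without KO mouse 2) to 226 (without KO mouse 1) when a mouse was left out. In input that number was 0 over all genes, 30 without a filter, 2 with the litter block, 1 with DESeq2, 2 with limma on the normalised table, and 0 to 21 when a mouse was left out (21 without KO mouse 2, 5 without KO mouse 3 and 2 without WT mouse 3). Members with few reads, such as Cyp2a22 with 2 to 16 input reads per library, carry a large counting error.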
